A study of Rattus norvegicus with 36 samples.

Results

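A group of 10 liver genes that take part in the response to fasting, glucagon and glucocorticoid hormone were followed through a dose series of a flame retardant in rats: Pck1, Tat, Igfbp1, Ppargc1a, Fbp1, Sds, Tsc22d3, Fkbp5, Depp1 and Irs2. They were taken as every probe set whose platform annotation names one of these symbols, which gave 13 probe sets for 10 genes, of 31042 probe sets and 14217 genes measured. Ppargc1a had 3 probe sets and Fkbp5 had 2, and the probe set of highest mean stands for each gene. The genes were chosen by their known role and selected on earlier results of the same arrays, namely their levels by dose group and their covariation between animals of a group, so the covariation is given as a description with no test.

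The 36 samples came from the left liver lobe of male Harlan Sprague Dawley rats that were 7 weeks of age when dosing began. Decabromodiphenylethane (DBDPE), a brominated flame retardant, was given in corn oil by gavage at 5 ml/kg on 5 consecutive days, and tissue was taken 1 day after the last dose. Each group held 6 samples: the vehicle group received corn oil alone (0 mg/kg), and the others received 970, 97.1, 9.71, 0.97 or 0.1 mg/kg. All groups had NTP-2000 diet and tap water freely available, and the labels give neither the hour of tissue collection nor any period without food. RNA was measured on Affymetrix 3′ IVT arrays, and every value is a log2 signal per probe set, so that a difference of 1 is a doubling of the signal. The samples are numbered within a group and were taken to be 1 rat each. The labels do not state this, and p-values measure only the spread between these samples.

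In the fed liver, insulin keeps the forkhead factor FoxO1 out of the nucleus and gluconeogenic genes low. During fasting, glucagon acts through cyclic AMP and the factor CREB, adrenal glucocorticoids act through the glucocorticoid receptor, and FoxO1 returns to the nucleus, so that enzymes of glucose synthesis and amino acid breakdown are made. Glucocorticoid levels also follow the time of day and stress, and several of these transcripts are known to follow them within hours.

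The bases before the start sites are shown for 4 of the genes, because these windows hold letter matches to the elements through which such hormones act. RefSeq (build GRCr8) gave 10 promoter windows for 8 of the 10 genes, 3 of them for Tsc22d3; Sds and Irs2 had no entry. Each line gives the 250 bases before a start site, 5′ to 3′ on the gene's strand, and capitals mark every match, on either strand, to the motifs searched. The windows are Pck1 at chr3:182348322-182348571 (plus strand), Igfbp1 at chr14:86261027-86261276 (plus strand), Ppargc1a at chr14:63634058-63634307 (plus strand) and the third Tsc22d3 window at chrX:109010035-109010284 (minus strand).
Pck1: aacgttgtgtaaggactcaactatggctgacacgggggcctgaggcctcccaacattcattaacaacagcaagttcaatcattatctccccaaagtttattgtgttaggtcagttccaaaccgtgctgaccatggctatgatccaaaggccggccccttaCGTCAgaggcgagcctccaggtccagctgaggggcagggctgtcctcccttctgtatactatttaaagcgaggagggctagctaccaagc
Igfbp1: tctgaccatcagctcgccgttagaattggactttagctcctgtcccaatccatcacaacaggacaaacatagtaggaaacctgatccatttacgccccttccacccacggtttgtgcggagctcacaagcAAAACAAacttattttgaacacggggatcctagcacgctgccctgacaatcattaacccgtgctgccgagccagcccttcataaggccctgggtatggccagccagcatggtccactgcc
Ppargc1a: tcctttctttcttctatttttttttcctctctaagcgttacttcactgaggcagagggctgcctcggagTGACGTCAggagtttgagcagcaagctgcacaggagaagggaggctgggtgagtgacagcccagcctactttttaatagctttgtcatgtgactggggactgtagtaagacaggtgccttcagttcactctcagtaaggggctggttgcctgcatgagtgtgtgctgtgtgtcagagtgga
Tsc22d3: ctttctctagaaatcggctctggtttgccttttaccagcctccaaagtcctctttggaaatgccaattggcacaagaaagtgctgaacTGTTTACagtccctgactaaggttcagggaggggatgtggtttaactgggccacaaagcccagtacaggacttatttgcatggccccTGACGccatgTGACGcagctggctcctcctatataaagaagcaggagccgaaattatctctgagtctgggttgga

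Positions count the first base of a match back from the start site. The cAMP response element TGACGTCA, the site CREB binds, was found in Ppargc1a at -181 and in 1.59% of 33469 RefSeq windows of the same length. Its core TGACG, which overlaps the full element, was found in Pck1 at -90, in Ppargc1a at -181 and -178, and in the third Tsc22d3 window at -75 and -65, against 18.2% of all windows. The forkhead letters GTAAACA lay in the third Tsc22d3 window at -162 (3.21% of all windows), and the insulin response type letters AAAACAA lay in Igfbp1 at -120 (7.96%). The core of the glucocorticoid response element, ACANNNTGT, lay in the second Tsc22d3 window at -183 (5.80% of all windows), and the E-box CACGTG was in none of the 10 windows (5.59%). A match describes letters in these windows and shows no binding.

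The arrays were alike in overall signal, with medians between 5.07 and 5.12 and pairwise correlations of 0.993 to 0.997 over probe sets, which are no replicates of each other. Replicate 4 at 970 mg/kg had the lowest mean correlation with the other arrays (0.994) and stood apart in several of the 10 genes, so values that rest on it are given with and without it. The hepatocyte markers were all high, with 6 of 6 above the array medians and a mean marker level of 13.60 to 13.76, while pancreatic acinar (0 of 5) and B cell markers (0 of 2) lay below the medians. Of the T and NK cell markers 1 of 6 lay above the medians, and their mean level was low, at 4.335 to 4.789. Macrophage markers lay above their vehicle means for 6 of 6 genes at 970 mg/kg (median log2 difference 0.22) and 4 of 6 at 97.1 mg/kg (0.09). The counts were 5 of 6 at 9.71 mg/kg (0.21), 6 of 6 at 0.97 mg/kg (0.29, with 2 unadjusted p under 0.05) and 6 of 6 at 0.1 mg/kg (0.13), with 0 passing limma. Markers of T and NK cells lay above for 5 of 6 genes at 970 mg/kg (0.16) and 5 of 6 at 97.1 mg/kg (0.19). They did so for 5 of 6 at 9.71 mg/kg (0.11), 6 of 6 at 0.97 mg/kg (0.19, with 3 unadjusted) and 5 of 6 at 0.1 mg/kg (0.08), again with 0 passing. At 0.97 mg/kg, 4.92% of all probe sets had an unadjusted p under 0.05. The part of these cells in the differences below was not tested. In bulk tissue, fewer cells of a type and less RNA per cell cannot be told apart. All 10 genes had a mean above the median of every array.

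The comparison of each dose with vehicle asks whether the transcripts of this hormonal programme differ after 5 days of exposure. Most of these genes had a mean below vehicle at every dose, and no difference passed the test. At 970 mg/kg, 0 of 10 genes passed limma's test after Benjamini-Hochberg adjustment over all probe sets, where 0.00644% of all probe sets passed, and 1 had an unadjusted p under 0.05. The counts were also 0 of 10 at 97.1 mg/kg (0.00644% of all probe sets passed; 2 genes unadjusted), at 9.71 mg/kg (0% passed; 0 unadjusted), at 0.97 mg/kg (0% passed; 1 unadjusted) and at 0.1 mg/kg (0% passed; 0 unadjusted). A slope on the dose step gave 0 of 10 (0.00644% passed; 2 unadjusted), and the moderated F test over the 5 doses gave 0 of 10 (0.00644% passed). Over all probe sets the share with an unadjusted p under 0.05 was 4.87% at 970 mg/kg and 5.42% at 97.1 mg/kg. It was 5.06% at 9.71, 4.92% at 0.97 and 4.46% at 0.1 mg/kg, and 5.7% for the slope. The lowest adjusted p of a gene was 0.803 at 970 mg/kg, 0.8999 at 97.1 mg/kg, 0.978 at 9.71 mg/kg, 0.985 at 0.97 mg/kg, 0.999 at 0.1 mg/kg and 0.621 for the slope.

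The direction of the differences was mostly downward without passing a test. Of the 10 genes, 7 had a negative log2 difference at 970 mg/kg, 8 at 97.1, 8 at 9.71, 7 at 0.97 and 8 at 0.1 mg/kg. All 5 comparisons share the same 6 vehicle samples, so these counts are not independent of each other. The median log2 difference of the 10 genes was -0.11, -0.28, -0.17, -0.22 and -0.22 in the same order, while the median over all probe sets was -0.0040 at 970 mg/kg and 0.0010 at 97.1 mg/kg. The 95% interval of the difference lay within -1 to 1 for 8 of 10 genes at 970, 97.1 and 9.71 mg/kg and for 9 of 10 at the lower doses; Igfbp1 was outside at every dose, Depp1 at 970 and 97.1 mg/kg and Tsc22d3 at 9.71 mg/kg.

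**Figure D1:**
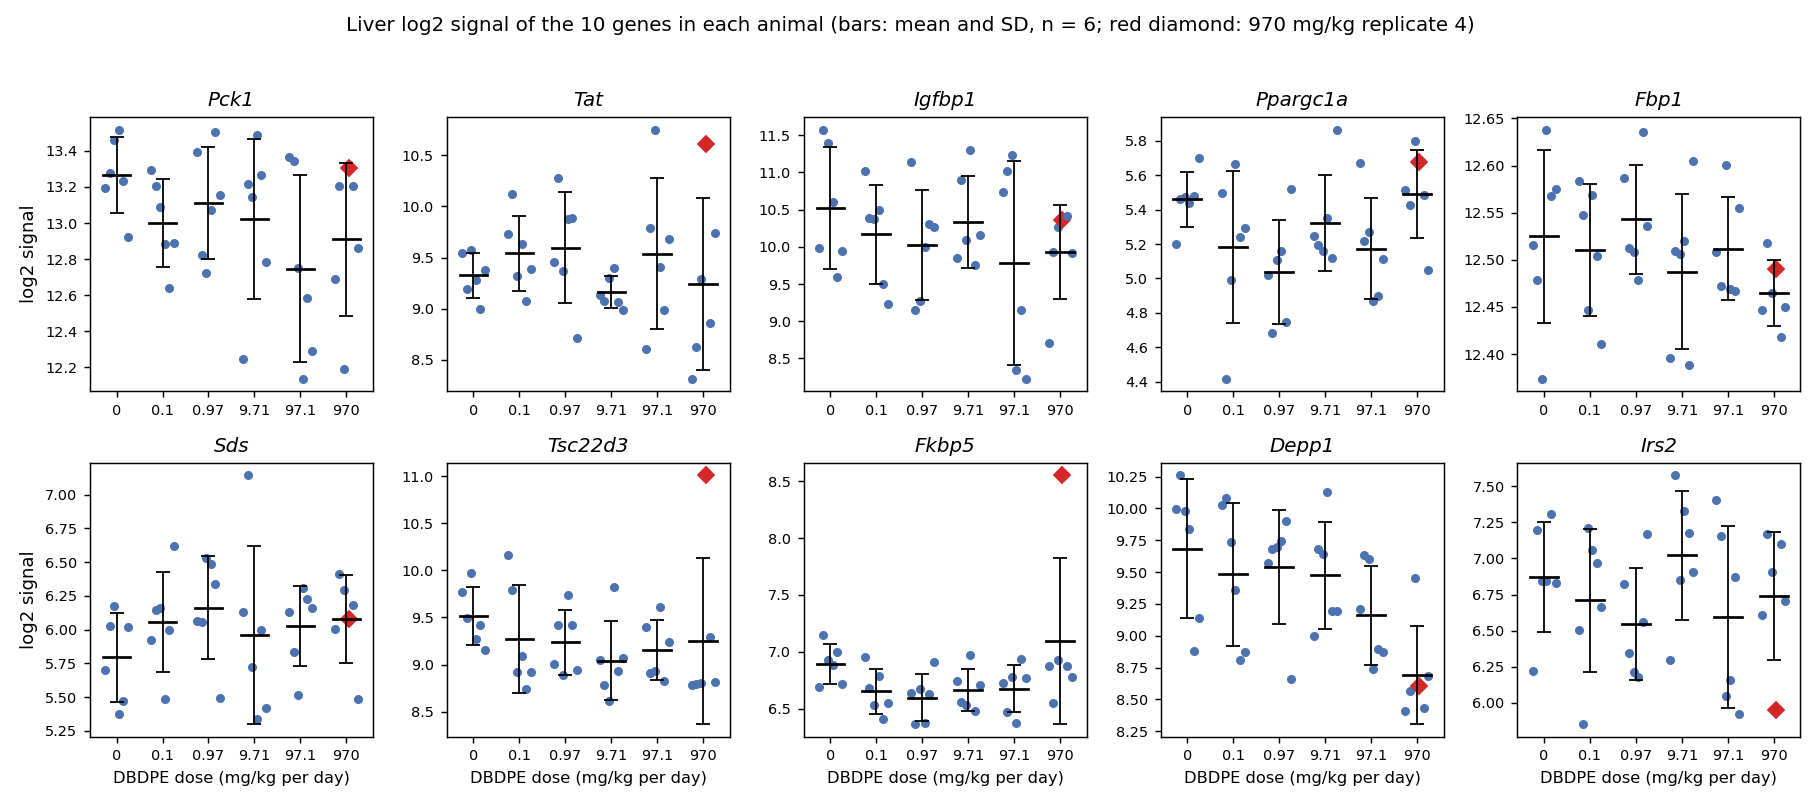
Log2 signal of each of the 10 genes (y axis, 1 panel a gene, each with its own scale) in the 36 animals by DBDPE dose (x axis, mg/kg per day); points are animals, bars the mean and SD of 6, and the red diamond is replicate 4 at 970 mg/kg. The groups overlap for every gene, Depp1 at 970 mg/kg lies lowest with 5 of 6 animals below every vehicle animal, and the red diamond is the highest point for Tsc22d3 (11.01) and Fkbp5 (8.55).

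Pck1 encodes the cytosolic phosphoenolpyruvate carboxykinase, the committed enzyme of glucose synthesis from lactate and amino acids. Its vehicle values lay between 12.92 and 13.52 (median 13.26). The lowest, median and highest values were 12.64, 12.99 and 13.29 at 0.1 mg/kg, 12.72, 13.11 and 13.51 at 0.97 mg/kg, and 12.25, 13.18 and 13.49 at 9.71 mg/kg. They were 12.14, 12.67 and 13.37 at 97.1 mg/kg and 12.19, 13.03 and 13.31 at 970 mg/kg. The treated groups reached lower than vehicle while their highest animals stayed inside the vehicle range, and 4 of 6 animals at 97.1 mg/kg and 3 of 6 at 970 mg/kg lay below every vehicle animal. The mean was 12.75 ± 0.52 (SD, n = 6) at 97.1 mg/kg and 13.27 ± 0.21 (SD, n = 6) in vehicle, a log2 difference of -0.52 (95% interval -0.93 to -0.11; limma adjusted p = 0.8999). The log2 difference at 970 mg/kg was -0.36 (95% interval -0.77 to 0.05; limma adjusted p = 0.966).

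Fbp1, the fructose bisphosphatase of the same pathway, was the steadiest of the 10. All 36 animals lay between 12.37 and 12.64, and the group means ran from 12.46 ± 0.04 (SD, n = 6) at 970 mg/kg to 12.54 ± 0.06 (SD, n = 6) at 0.97 mg/kg. The 95% interval of the difference at 970 mg/kg was -0.15 to 0.03. Every group overlapped vehicle, and 0 animals at any dose lay outside the vehicle range.

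Tat encodes tyrosine aminotransferase, which starts tyrosine breakdown and is a classic glucocorticoid-induced liver enzyme. Vehicle animals lay between 8.998 and 9.57 (median 9.33). The lowest, median and highest were 8.61, 9.54 and 10.75 at 97.1 mg/kg and 8.32, 9.07 and 10.61 at 970 mg/kg. These groups spread to both sides of vehicle, with SDs of 0.74 and 0.84 against 0.22 (n = 6 each). The highest animals were replicate 3 at 97.1 mg/kg and replicate 4 at 970 mg/kg. The log2 difference from vehicle was -0.09 (95% interval -0.67 to 0.50) at 970 mg/kg and 0.21 (-0.38 to 0.80) at 97.1 mg/kg. Without replicate 4 the difference at 970 mg/kg was -0.36 (-0.90 to 0.18), and the SD of the remaining animals was 0.56 (n = 5). At 9.71 mg/kg the animals were close together, between 8.99 and 9.40, and 1 of 6 lay below vehicle.

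Sds, serine dehydratase, turns serine into pyruvate for glucose synthesis. Its means were above the vehicle mean of 5.79 ± 0.33 (SD, n = 6) at all 5 doses, from 5.96 ± 0.66 (SD, n = 6) at 9.71 mg/kg to 6.16 ± 0.38 (SD, n = 6) at 0.97 mg/kg. At each of these doses except 9.71 mg/kg, 5 of 6 animals lay above the vehicle mean, against 3 of 6 at 9.71 mg/kg. The log2 difference at 970 mg/kg was 0.28 (95% interval -0.17 to 0.73; limma adjusted p = 0.968).

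Igfbp1, the insulin-like growth factor binding protein that the liver secretes when insulin is low, varied most. Vehicle animals ran from 9.59 through a median of 10.30 to 11.58. At 97.1 mg/kg the animals ran from 8.23 through 9.94 to 11.24, and at 970 mg/kg from 8.71 through 10.10 to 10.41. At 0.1, 0.97 and 9.71 mg/kg the medians were 10.38, 10.13 and 10.12. The 97.1 mg/kg group was divided, with replicates 1 to 3 at 10.73, 11.02 and 11.24 and replicates 4 to 6 at 8.35, 9.15 and 8.23. In the same animals Pck1 stood at 13.37, 13.34 and 12.75 in replicates 1 to 3 and at 12.14, 12.58 and 12.29 in replicates 4 to 6. Depp1 stood at 9.21, 9.64 and 9.60 and at 8.74, 8.90 and 8.87. These replicates were singled out after their values were seen, and the labels give only the sample number to separate them. In vehicle, Depp1 stood at 9.99, 10.26 and 9.98 in replicates 1 to 3 and at 9.84, 8.88 and 9.14 in replicates 4 to 6. At 0.1 mg/kg it stood at 10.03, 10.08 and 9.74 and at 9.36, 8.81 and 8.87. At 0.97 mg/kg it stood at 9.57, 9.68 and 9.70 and at 9.75, 9.90 and 8.66. At 9.71 mg/kg it stood at 8.997, 9.68 and 9.65 and at 10.13, 9.19 and 9.20, so these groups were not divided in the same way. At 970 mg/kg it stood at 8.41, 8.57 and 9.45 and at 8.61, 8.43 and 8.68. The part of the sample number was not tested. The log2 difference of Igfbp1 from vehicle was -0.73 (95% interval -1.65 to 0.19) at 97.1 mg/kg and -0.58 (-1.51 to 0.34) at 970 mg/kg.

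Ppargc1a encodes the coactivator PGC-1α, which joins CREB and FoxO1 signals to the gluconeogenic genes. Its values lay between 4.42 and 5.87, a range that includes the median of every array, so the transcript was near the middle of all signals. Vehicle animals lay between 5.20 and 5.70 (median 5.47), animals at 0.97 mg/kg between 4.68 and 5.52 (median 5.06), and animals at 970 mg/kg between 5.05 and 5.80 (median 5.50). At 0.97 mg/kg 5 of 6 animals lay below every vehicle animal, while at 970 mg/kg 4 of 6 lay above the vehicle mean. The log2 difference at 0.97 mg/kg was -0.42 (95% interval -0.75 to -0.09; limma adjusted p = 0.985), and the other 2 probe sets gave -0.25 and -0.48. At this dose all 6 macrophage and all 6 T and NK cell markers also lay above vehicle, as most did at the other doses. Their part in the value was not tested. At 970 mg/kg the log2 difference of Ppargc1a was 0.03 (-0.30 to 0.36). After removing group means the 3 probe sets correlated at r = 0.69, 0.83 and 0.78 over 36 animals.

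Irs2, the insulin receptor substrate whose transcript insulin lowers through FoxO1, had overlapping groups at every dose. Vehicle animals lay between 6.22 and 7.31 (median 6.84), animals at 97.1 mg/kg between 5.92 and 7.40 (median 6.51), and animals at 970 mg/kg between 5.95 and 7.17 (median 6.81). The log2 difference was -0.28 (95% interval -0.80 to 0.23) at 97.1 mg/kg and -0.14 (-0.65 to 0.38) at 970 mg/kg. At 970 mg/kg without replicate 4 it was 0.02 (-0.49 to 0.54).

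Depp1, a small protein gene induced by FoxO factors and by fasting, had the lowest levels at the highest dose. Vehicle animals ran from 8.88 through a median of 9.91 to 10.26. At 97.1 mg/kg the animals ran from 8.74 through 9.05 to 9.64, and at 970 mg/kg from 8.41 through 8.59 to 9.45. Of the 6 animals at 970 mg/kg, 5 lay below every vehicle animal, and the exception was replicate 3. At the lower doses the medians were 9.55 (0.1 mg/kg), 9.69 (0.97 mg/kg) and 9.42 (9.71 mg/kg), and the groups overlapped vehicle throughout. The log2 difference was -0.99 (95% interval -1.50 to -0.49) at 970 mg/kg, a signal 1.99-fold lower, and -0.52 (-1.03 to -0.02) at 97.1 mg/kg. Depp1 was already known to have one of the smaller p values at 970 mg/kg when the genes were chosen, so this difference is a description; like the other 9, it did not pass over all probe sets.

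Tsc22d3, which encodes the glucocorticoid-induced leucine zipper GILZ, lay between 9.15 and 9.97 in vehicle (median 9.46). The lowest, median and highest were 8.61, 8.99 and 9.82 at 9.71 mg/kg and 8.78, 8.81 and 11.01 at 970 mg/kg. In the top dose group 4 of 6 animals lay below every vehicle animal and 1, replicate 4, lay above all 36. At 9.71 mg/kg 5 of 6 lay below every vehicle animal. The log2 difference was -0.47 (95% interval -1.04 to 0.09) at 9.71 mg/kg. At 970 mg/kg it was -0.27 (-0.83 to 0.30) with all animals and -0.62 (-1.06 to -0.18; limma adjusted p = 0.716) without replicate 4. Tsc22d3 correlated at r = -0.44 and rho = -0.45, over the 36 animals after removing group means, with the 3′ to 5′ difference of the beta-actin controls, a measure of RNA quality that lay between 1.02 and 1.33. The part of RNA quality in its level was not tested.

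Fkbp5 encodes FKBP51, the co-chaperone that is induced by the glucocorticoid receptor and restrains it. Vehicle animals lay between 6.69 and 7.15 (median 6.91), and animals at 0.97 mg/kg between 6.36 and 6.91 (median 6.63). The animals at 970 mg/kg ran from 6.55 through 6.87 to 8.55. At 0.97 mg/kg 5 of 6 animals lay below every vehicle animal, and at 970 mg/kg only replicate 4 lay above vehicle. The log2 difference was -0.30 (95% interval -0.68 to 0.08) at 0.97 mg/kg. The macrophage and T and NK cell markers stood above vehicle there, as most of them did at the other doses, and their part was not tested. At 970 mg/kg the log2 difference of Fkbp5 was 0.20 (-0.18 to 0.58) with replicate 4 and -0.09 (-0.31 to 0.13) without that animal. The second Fkbp5 probe set gave -0.19 at 0.97 mg/kg, with 3 of 6 animals below every vehicle animal, and 0.04 at 970 mg/kg. After removing group means the 2 probe sets correlated at r = 0.81 and rho = 0.58 over 36 animals. Without replicate 4 at 970 mg/kg their r was 0.42.

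**Figure D2:**
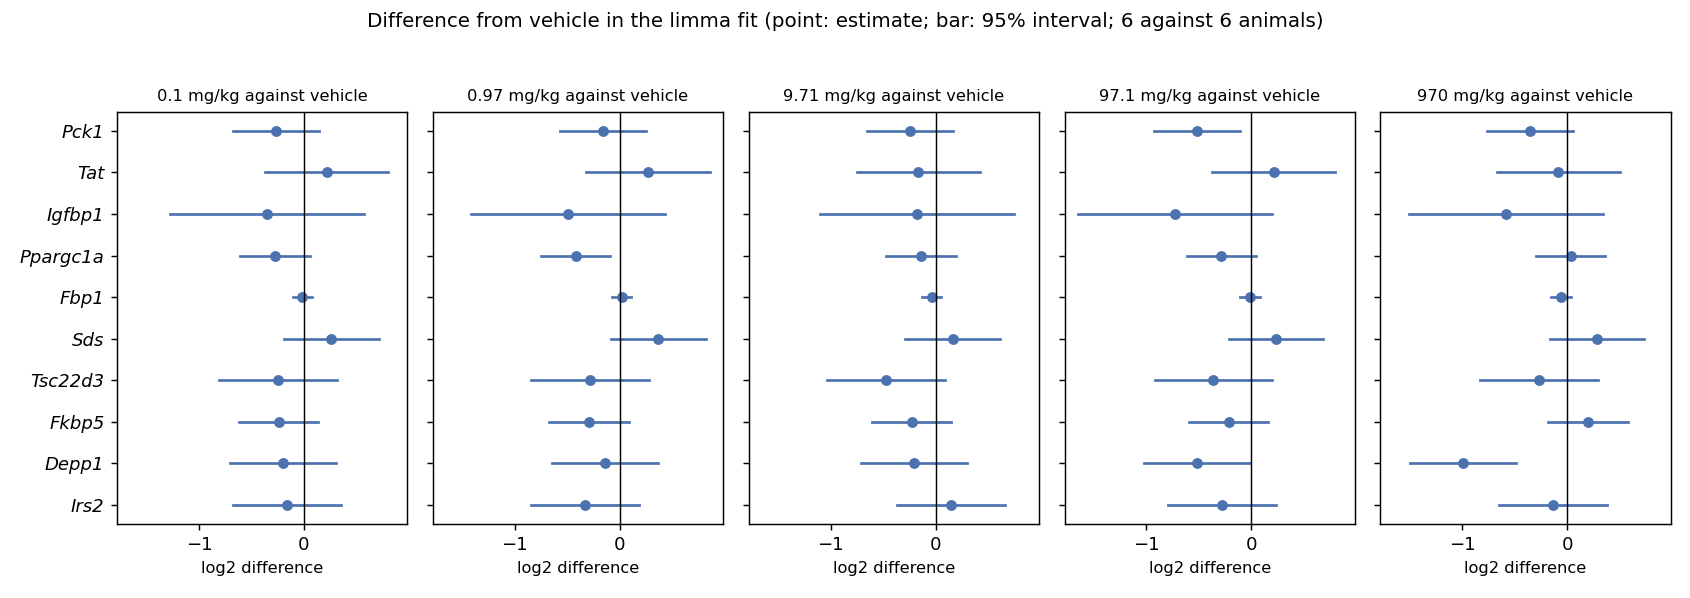
Log2 difference from vehicle (x axis) of each of the 10 genes (y axis) at the 5 doses (panels), with the limma estimate as a point and its 95% interval as a bar, 6 against 6 animals. Most points lie left of 0, most bars cross it, and the Depp1 point at 970 mg/kg (-0.99, bar from -1.50 to -0.49) lies farthest left.

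Ordered by group mean, 5 of the 10 genes had vehicle highest (Pck1, Igfbp1, Tsc22d3, Depp1) or lowest (Sds). Neighbouring means in the order of each gene differed by less than its pooled within-group SD for all genes but Depp1. For Depp1 1 gap was larger, 0.47 between 97.1 and 970 mg/kg against an SD of 0.46.

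The animals of a group differed more in these genes than in most. The pooled within-group SD was above the 95th percentile of 20826 probe sets for 9 of the 10 genes, where the median SD was 0.14. Igfbp1 had an SD of 0.85 (percentile 99.8) and a 10.2-fold range over the 36 animals. Tat had an SD of 0.54 and a 5.39-fold range, and Tsc22d3 an SD of 0.52 and a 5.29-fold range. Irs2 (0.47), Depp1 (0.46), Sds (0.41), Pck1 (0.37), Fkbp5 (0.35) and Ppargc1a (0.30) followed. Without replicate 4 at 970 mg/kg the count above the 95th percentile was 8 of 10. Fkbp5 then had an SD of 0.19 (percentile 85.3, against 97.7 with that animal) and a 1.73-fold range in place of 4.57-fold, and its second probe set went from percentile 92.4 to 52.4. Tsc22d3 had an SD of 0.38 and a 2.95-fold range without it, and Tat an SD of 0.47. Fbp1 was the exception, with an SD of 0.07 (percentile 3.06) and a 1.20-fold range.

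Between animals of the same dose group, some pairs of these genes went together and others did not. The values of a pair come from the same array, and r and rho were taken over 36 animals after removing group means. Pck1 and Igfbp1 went together (r = 0.65, rho = 0.67), with r above 0 in 6 of 6 groups and between 0.61 and 0.74 when any 1 animal was left out. Igfbp1 and Depp1 also went together (r = 0.61, rho = 0.65; above 0 in 5 of 6 groups), and Tat with Depp1 (r = 0.46, rho = 0.53; 6 of 6 groups). Tat and Irs2 ran opposite (r = -0.61, rho = -0.54), with r above 0 in 1 of 6 groups. The same insulin-sensitive Irs2 went with Pck1 at r = 0.39 and with Igfbp1 at r = 0.34. Over all 45 pairs the median r was 0.17, 30 pairs were above 0, and 5 had a size above 0.5.

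The correlation of the 2 glucocorticoid receptor targets rested on a single animal. Tsc22d3 and Fkbp5 had r = 0.65 and rho = 0.35 with all 36 animals, and r = 0.20 without replicate 4 at 970 mg/kg. Tat and Tsc22d3 had r = 0.52 and r = 0.27 without it. The pairs of Pck1 with Igfbp1 (0.65) and of Igfbp1 with Depp1 (0.61) had the same r without it to 2 decimals. Ppargc1a, Fbp1 and Sds had weak relations to most of the others; among their pairs Fbp1 with Sds was farthest from 0 (r = -0.41, rho = -0.44).

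**Figure D3:**
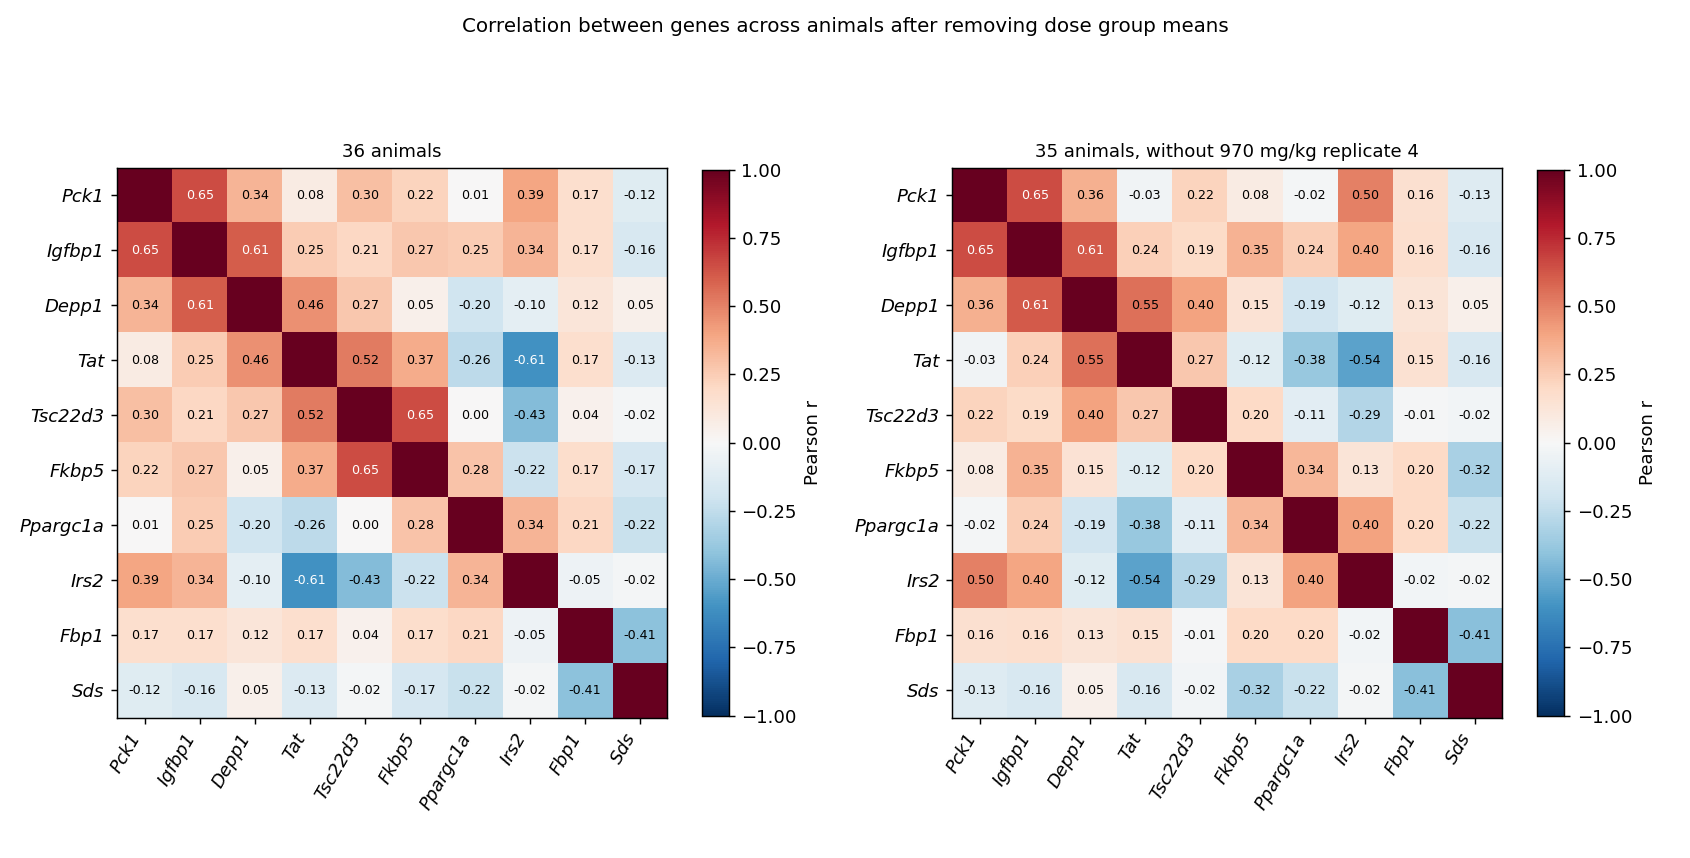
Pearson r between each pair of the 10 genes (rows and columns) after removing dose group means, with 36 animals on the left and without replicate 4 at 970 mg/kg on the right; red is positive and blue negative. The pair of Tsc22d3 and Fkbp5 goes from 0.65 to 0.20 between the panels, while Pck1 with Igfbp1 is 0.65 in each.

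A further set of 5 genes was set against the 10: Per1 and Dbp, clock genes of which Per1 also answers to glucocorticoid; Pdk4, the fasting-induced kinase that blocks pyruvate oxidation; Angptl4, a fasting-induced inhibitor of lipoprotein lipase; and Srebf1, the insulin-induced regulator of fat synthesis. Of the 50 pairs, 5 passed a permutation test of Pearson r within dose groups (100000 resamples, two-sided, Benjamini-Hochberg over 50 pairs), and 5 passed by Spearman rho. The 10 genes were selected with their covariation between animals of these same arrays known. The p-values of the pairs are therefore a description and no independent test.

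Tsc22d3 went with Per1 (r = 0.75, rho = 0.75, permutation p = 1e-05 for each, the smallest these resamples can give; adjusted p = 0.0005), with r above 0 in 6 of 6 groups. It held at r = 0.72 without the 2 animals farthest from the median of Tsc22d3 and at 0.68 without replicate 4 at 970 mg/kg. Irs2 went with Pdk4 (r = 0.63, rho = 0.60; permutation p = 6e-05 and 0.00019; adjusted p = 0.0015 and 0.00475), in 6 of 6 groups, and r was 0.61 without the 2 farthest animals. These 2 pairs passed under each alternative tried.

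Pdk4 ran against Tsc22d3 and Tat. Tsc22d3 with Pdk4 had r = -0.70 and rho = -0.55 (permutation p = 0.00044 and 0.00135; adjusted p = 0.0055 and 0.0169), and r = -0.49 without the 2 farthest animals. Tat with Pdk4 had r = -0.59 and rho = -0.52 (permutation p = 0.00019 and 0.00097; adjusted p = 0.00317 and 0.0162), with r above 0 in 0 of 6 groups and r = -0.45 without the 2 farthest. Fkbp5 with Pdk4 did not pass (r = -0.43, rho = -0.10; permutation p = 0.0988 and 0.545; adjusted p = 0.322 and 0.757), and r was 0.035 without replicate 4 at 970 mg/kg. Tsc22d3 with Dbp had r = 0.43 and rho = 0.49 (permutation p = 0.00297 and 0.00275; adjusted p = 0.0297 and 0.0275), above 0 in 6 of 6 groups, and r = 0.41 without the 2 farthest. Without their 2 farthest animals the pairs of Tsc22d3 with Pdk4, Tat with Pdk4 and Tsc22d3 with Dbp no longer passed over the 50. Tsc22d3 with Dbp also did not pass with the beta-actin difference regressed out or without replicate 4 at 970 mg/kg, where its r was 0.48.

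**Figure D4:**
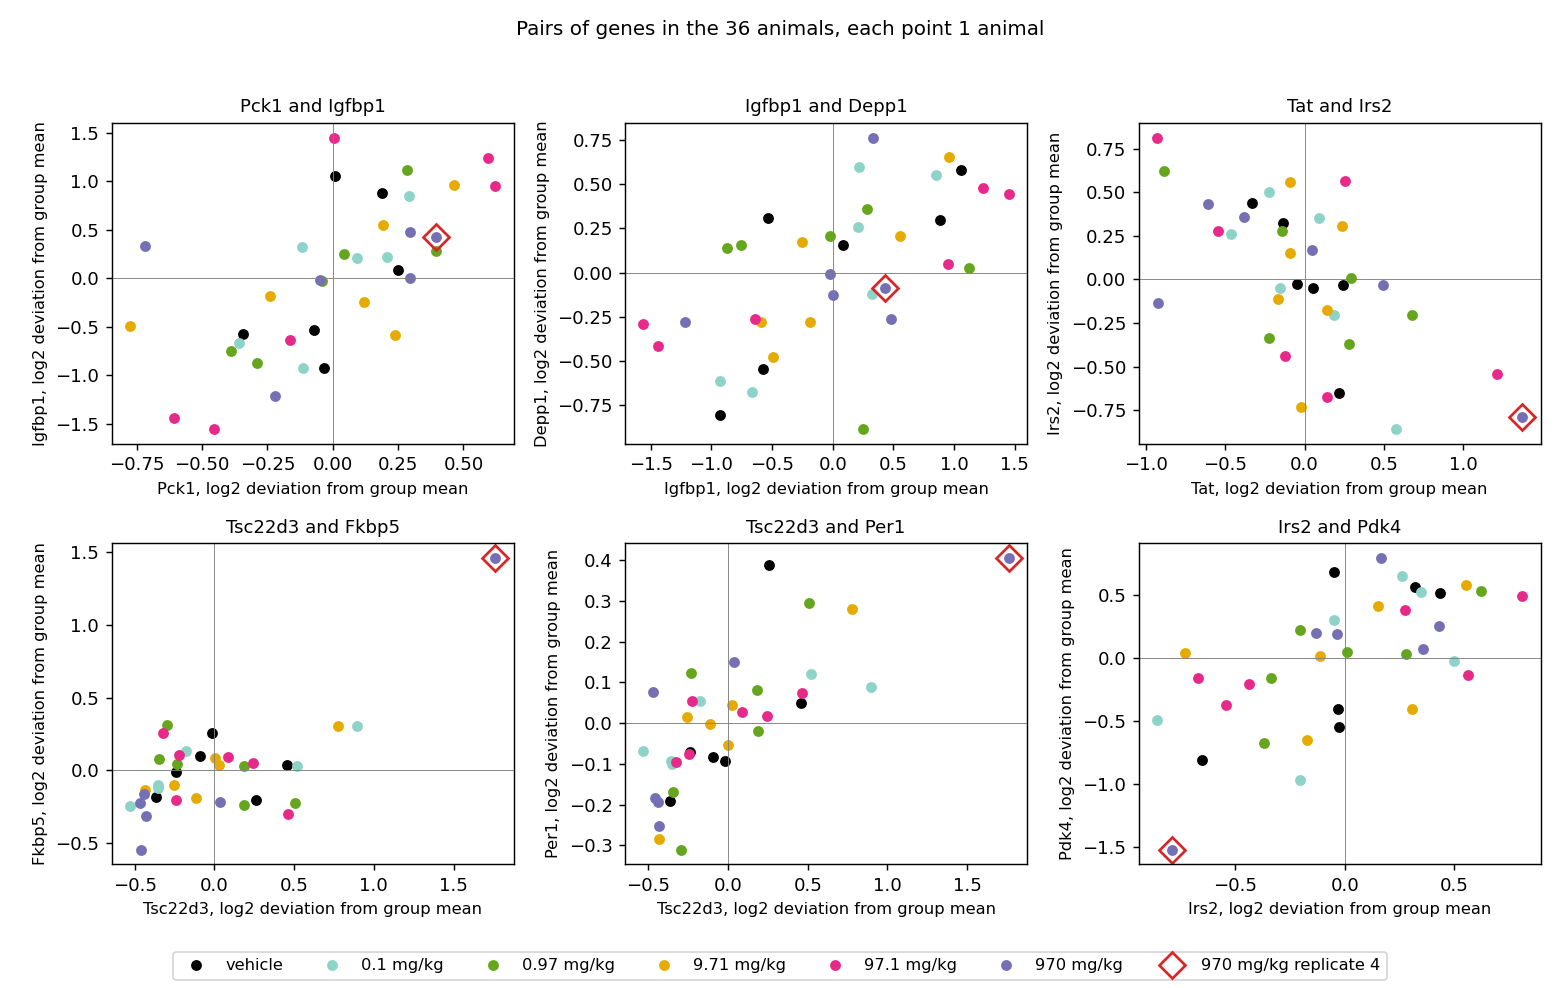
Deviation of each animal from its dose group mean (log2, x and y axes) for 6 pairs of genes, coloured by dose, with replicate 4 at 970 mg/kg ringed by a red diamond. Pck1 with Igfbp1 (r = 0.65), Tsc22d3 with Per1 (r = 0.75) and Irs2 with Pdk4 (r = 0.63) slope upward over many animals, while in Tsc22d3 with Fkbp5 1 animal lies far from the rest.

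The genes whose levels most resembled each member between animals were looked for among 9571 genes whose probe set lay at or above the median level, by Pearson r over the 36 animals after removing group means, as a description. The named genes are the extremes of these 9571. Over all of them the 99th percentile of r lay between 0.43 (Igfbp1) and 0.62 (Tat). The 1st percentile lay between -0.62 (Irs2) and -0.45 (Fbp1). An r above 0.5 was found for 32 genes (Igfbp1) to 433 genes (Tat). The gene most like Igfbp1 was Pck1 itself (0.65). Pck1 had its highest r with the Wnt receptor Fzd8 (0.74) and its lowest with Mid1ip1 (-0.79), a stimulator of acetyl-CoA carboxylase. Tsc22d3 had the closest likenesses of all, with Zfp354a (0.91), the transcription factor Klf13 (0.90), the phosphatase Ptp4a1 (0.90) and the interleukin 6 receptor Il6r (0.89), and without replicate 4 at 970 mg/kg these were 0.89, 0.81, 0.80 and 0.79.

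Depp1 was most opposed to Zswim1 (-0.80) and to Cish (-0.80), a feedback inhibitor of STAT5 signalling. Irs2 was most like the cyclin Ccng2 (0.78) and most opposed to Mrpl47 (-0.81) and to Alas1 (-0.80), the first enzyme of heme synthesis. Tat was most like Rngtt (0.79) and most opposed to Adi1 (-0.73), of the methionine salvage pathway. Fkbp5 was most like Polg2 (0.80) and Dcaf13 (0.79), and these were 0.59 and 0.27 without replicate 4 at 970 mg/kg. Ppargc1a was most like the retinoic acid receptor Rarb (0.73), Fbp1 most like Abraxas2 (0.73), and Sds most like the transporter Abca8a (0.71) and most opposed to the ribosomal protein gene Rpl19 (-0.73).

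Replicate 4 at 970 mg/kg is set against the other 5 animals of its group as a description, since it was singled out by its values. Tsc22d3 stood at 11.01 against 8.90 ± 0.22 (SD, n = 5), 4.33-fold higher, and was the highest of 36. Fkbp5 stood at 8.55 against 6.80 ± 0.15 (SD, n = 5), 3.37-fold higher and again the highest of 36. Tat stood at 10.61 against 8.97 ± 0.56 (SD, n = 5), 3.13-fold higher. Pck1 stood at 13.31 against 12.83 ± 0.42 (SD, n = 5), 1.39-fold higher and above all 5. Irs2 stood at 5.95 against 6.90 ± 0.24 (SD, n = 5), below all 5, while Igfbp1, Ppargc1a, Fbp1, Sds and Depp1 lay within the range of the other 5.

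Of 19 further measured glucocorticoid receptor targets, 9 lay above all 5 other animals, 4 lay below and 6 within. That is 47.4% above, against 18.9% of all probe sets, and 7 of 17 insulin-induced genes (41.2%) and 7 of 17 clock genes (41.2%) also lay above all 5. Those above included the cell cycle inhibitor Cdkn1a (9.31 against 7.34 ± 0.21, SD, n = 5), Bcl6 (9.05 against 7.10 ± 0.55, SD, n = 5) and Klf9 (10.94 against 10.27 ± 0.12, SD, n = 5). From the highest of 36, this animal ranked 1 for Cdkn1a, 10 for Bcl6 and 3 for Klf9, and the vehicle mean of Bcl6 was 9.06 ± 1.26 (SD, n = 6). Those below the other 5 were Angptl4 (9.29 against 10.30 ± 0.25, SD, n = 5), Sgk1, Lcn2 and Nr3c1, the gene of the receptor itself (8.94 against 9.32 ± 0.07, SD, n = 5). The adipocyte marker level of this animal was the highest of 36 (5.42, where the lowest was 5.11), and the part of other cells in its values was not tested.

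**Figure D5:**
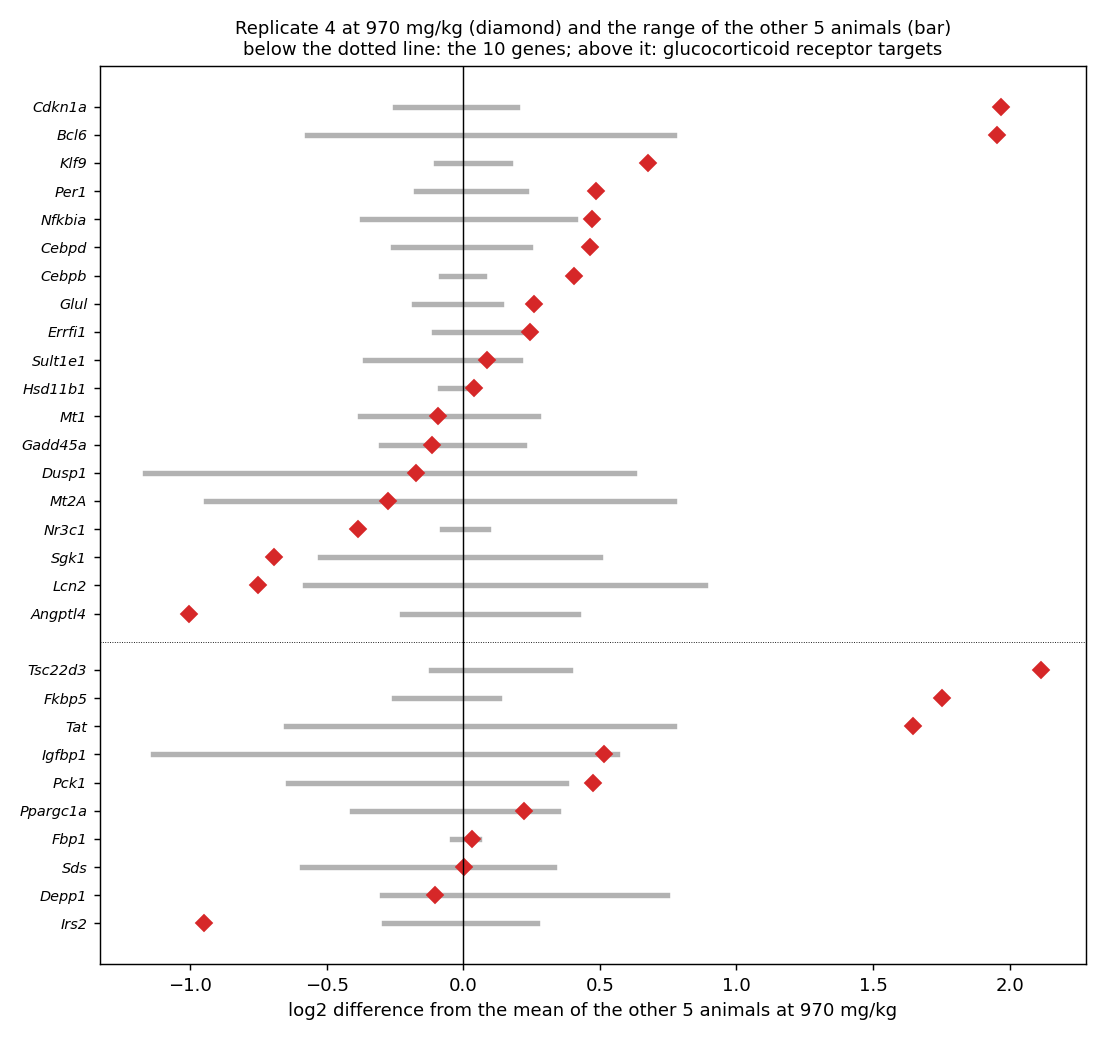
Log2 difference of replicate 4 at 970 mg/kg from the mean of the other 5 animals of its group (x axis, red diamonds) for the 10 genes and 19 other glucocorticoid receptor targets (y axis), with the range of those 5 animals as a grey bar. Tsc22d3 (2.11), Cdkn1a (1.97), Bcl6 (1.95), Fkbp5 (1.75) and Tat (1.65) lie farthest above the mean, and Angptl4 (-1.004) farthest below.

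Lists of related genes, none of them among the 10, showed no gene past the threshold at any dose. Beside their unadjusted counts, 4.87% of all probe sets had an unadjusted p under 0.05 at 970 mg/kg and 5.42% at 97.1 mg/kg. Among gluconeogenic enzymes and fuel transporters 20 of 22 were measured and 0 passed limma in either direction at 970 mg/kg, with 1 unadjusted p under 0.05 and a median log2 difference of -0.06, against -0.0040 over all probe sets. The members of smallest p were Eno1 (-0.18), the glucose 6-phosphate transporter Slc37a4 (-0.12) and the glucose transporter Slc2a2 (-0.11). At 97.1 mg/kg 0 of 20 passed, 2 had an unadjusted p under 0.05, and the alanine aminotransferase Gpt stood at 0.44 (95% interval 0.10 to 0.78; limma adjusted p = 0.8999). Amino acid catabolism gave 0 of 19 at 970 mg/kg (1 unadjusted, median -0.01) and 0 of 19 at 97.1 mg/kg (1 unadjusted, median -0.03), with Agxt at -0.20 at 970 mg/kg.

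The other glucocorticoid receptor targets gave 0 of 19 at 970 mg/kg (2 unadjusted, median 0.05) and 0 of 19 at 97.1 mg/kg (3 unadjusted, median -0.01). The repressor Bcl6 had log2 differences of -1.64 (95% interval -3.07 to -0.20) and -1.98 (-3.41 to -0.54), with a vehicle SD of 1.26, and the transcription factor Cebpb had 0.44 and 0.38. Targets of FoxO and CREB gave 0 of 23 at 970 mg/kg (1 unadjusted, median -0.03) and 0 of 23 at 97.1 mg/kg (2 unadjusted, median 0.02). Klf15, which drives amino acid breakdown in fasting, stood at -0.31 at 970 mg/kg and -0.44 at 97.1 mg/kg, and at -0.51 (95% interval -0.81 to -0.21; limma adjusted p = 0.550) at 970 mg/kg without replicate 4. Fasting genes of PPARα and ketone synthesis gave 0 of 15 at 970 mg/kg (0 unadjusted, median -0.02) and 0 of 15 at 97.1 mg/kg (1 unadjusted, median 0.01), with Pdk4 at 0.42 and 0.57. Without replicate 4 Pdk4 stood at 0.72 (95% interval 0.16 to 1.28; limma adjusted p = 0.744) at 970 mg/kg, and its value at 9.71 mg/kg was 0.88 (0.26 to 1.503; limma adjusted p = 0.967).

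Genes that insulin and carbohydrate induce gave 0 of 17 at 970 mg/kg (1 unadjusted), with 14 of 17 below 0 and a median of -0.22, where 51.9% of all probe sets were below 0. Without replicate 4 the count below 0 was 15 of 17, the median was -0.21, and 6 had an unadjusted p under 0.05 with 0 passing, while over all 31042 probe sets 16065 were below 0 and 1849 had an unadjusted p under 0.05. At 97.1 mg/kg 10 of 17 were below 0 and the median was -0.02 (0 unadjusted). At the lower doses 13 of 17 were below 0 at 9.71 mg/kg (median -0.08), 13 of 17 at 0.97 mg/kg (-0.08) and 16 of 17 at 0.1 mg/kg (-0.12). The acetyl-CoA carboxylase gene Acaca stood at -0.22 (95% interval -0.41 to -0.04; limma adjusted p = 0.966) and the pyruvate kinase gene Pklr at -0.26 (-0.54 to 0.02) at 970 mg/kg. Circadian clock genes gave 0 of 17 at 970 mg/kg (4 unadjusted, median 0.01) and 0 of 17 at 97.1 mg/kg (2 unadjusted, median -0.06). The clock repressor Nr1d1 stood at -0.61 (95% interval -1.10 to -0.12) and Cry2 at -0.23 (-0.41 to -0.05) at 970 mg/kg.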

How the data were processed

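Liver RNA of 36 rats, 6 in each of 6 dose groups, was hybridised to Affymetrix 3′ IVT arrays. The submitters' processing notes name RMA and affy (versions not stated), and the authors deposited one log2 signal for each probe set. Of 31099 probe sets, 57 controls were left out and no filter on low values was applied. Gene symbols came from the platform annotation, updated through Entrez ID to RefSeq (20758 of the 20826 probe sets naming 1 gene matched). The labels give no batch and no scan date. RNA had an integrity number of at least 7.

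Each dose was compared with vehicle in limma 3.58.1 (R 4.3.3; lmFit, eBayes) over all 36 samples, two-sided, with Benjamini-Hochberg adjustment over 31042 probe sets and a threshold of 0.05. A slope on the dose step and a moderated F test were fitted as well. The fit of 970 mg/kg against vehicle was tested on simulated arrays with as many samples and probe sets. There it called 93 of 100 simulated 1.5-fold changes, 100 of 100 simulated 2-fold changes and 14 unchanged probe sets. These counts do not show how often such changes would be called in the genes followed here. Of those genes, 9 had a within-group SD above the 95th percentile of probe sets. In the measured data Depp1 was 1.99-fold lower at 970 mg/kg than in vehicle and did not pass (limma adjusted p = 0.803). The number of arrays limits the precision. Permutation tests used Python 3.11.15 and numpy 2.4.6.

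The genes and lists were chosen with earlier results of these data known. All 10 genes are named. From each list up to 3 genes of smallest p at 970 and 97.1 mg/kg were eligible to be named, and for each of the 10 genes the 5 of highest and 2 of lowest r. Of 6 partner genes planned, 5 are reported here. The settings varied were the normalization (arrays centred, or cyclic loess), the weighting of arrays, the variance prior (intensity trend, robust), the beta-actin difference in the model, probe sets averaged per gene, a filter on low probe sets, the 12 compared samples by themselves, a replicate block, and each sample left out. Partner correlations, list values and the spread between animals without replicate 4 at 970 mg/kg were added after seeing the data. Sample numbers were not used to pair samples, since the mean r between residuals of same-numbered samples was 0.0048 (90 pairs). This mean does not show whether single genes follow the number.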

Additional observations from a re-analysis of the deposited data

Results flagged for a closer look

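In groups of 6, 78 combinations of probe set and dose were examined for an animal that stood apart from the others by Dixon's test, and 7 were found. The 3.9 that chance gives at 1 in 20 holds for independent combinations of genes chosen without their values. Here the values served to choose the genes, and some probe sets share a gene and all share the animals. The 7 are therefore a description. Of the 7, 3 were replicate 4 at 970 mg/kg: Tsc22d3 at 11.01 (the nearest other animal was at 9.29), Fkbp5 at 8.55 (nearest 6.93) and the second Fkbp5 probe set at 7.46 (nearest 6.61).

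The other 4 came from different animals. Igfbp1 was lowest in replicate 1 at 970 mg/kg, at 8.71, where the other 5 had 10.18 ± 0.24 (SD, n = 5). Depp1 was highest in replicate 3 at 970 mg/kg, at 9.45, where the other 5 had 8.54 ± 0.12 (SD, n = 5); the same animal had the highest neutrophil marker level of the 36 (5.88), whose part was not tested. Depp1 was lowest in replicate 6 at 0.97 mg/kg, at 8.66, where the other 5 had 9.72 ± 0.12 (SD, n = 5). Ppargc1a was highest in replicate 6 at 9.71 mg/kg, at 5.87, where the other 5 had 5.21 ± 0.09 (SD, n = 5).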

How the results depend on the processing

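The count of the 10 genes past the threshold was 0 in every comparison under every alternative run, and the lowest adjusted p of a gene ranged from 0.143 to 0.998 at 970 mg/kg and from 0.632 to 1 at 97.1 mg/kg. With the replicate number as a block, limma called 0 genes and the same number of probe sets (2) at 970 mg/kg. The lowest adjusted p of a gene was then 0.143, against 0.803 in the main fit. For the limma slope it was 0.191 with the block against 0.621, and for the moderated F test 0.524 against 0.999. Among same-numbered samples 15 of 90 pairs had r over 0.1, and 10 of 36 samples correlated best with their own number. Single genes could still follow the number. From vehicle up to 970 mg/kg, Depp1 deviated from its group mean by 0.30, 0.26, 0.16, 0.17, 0.44 and 0.76 in replicate 3. In replicate 6 the deviations were -0.54, -0.61, -0.88, -0.28, -0.29 and -0.01. Both replicate numbers were picked after the values were seen, and the part of the number was not tested. Of 720 log2 differences of single genes at 970 and 97.1 mg/kg with 1 animal left out, 9 changed sign, and of 160 under other alternatives 0 did. The ranges over left-out animals that crossed 0 were, at 970 mg/kg, Tat -0.36 to 0.099, Ppargc1a -0.030 to 0.12, Fkbp5 -0.092 to 0.31 and Irs2 -0.27 to 0.023, and, at 97.1 mg/kg, Tat -0.031 to 0.40 and Fbp1 -0.043 to 0.0098. The median r of the 45 pairs ranged from 0.08 to 0.20 with 1 animal left out. Of the partner pairs, 5 passed in the main setting, 6 after cyclic loess (Fkbp5 with Srebf1 joined), 4 with the beta-actin difference regressed out, 4 without replicate 4 at 970 mg/kg and 2 without the 2 animals farthest from the median of each gene; the cause was not tested.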
